A study of Mus musculus with 4 samples.

Results

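The 32 cyclin and cyclin-dependent kinase (Cdk) genes of the mouse were examined for N6-methyladenosine (m6A) in c-Kit+ hematopoietic cells. They are the GENCODE M21 protein-coding genes whose symbol is Ccn, a letter from a to l and digits, or Cdk and digits only, namely 14 cyclins and 18 Cdks among 21951 protein-coding genes. Of these, 15 carried an m6A peak whose summit, the position of highest signal, lay in an exon in both replicates, where the share over all protein-coding genes was 30.9%.

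The study profiled m6A by meRIP-seq, in which RNA is fragmented and fragments that carry m6A are captured with an antibody (IP). The captured fragments, and fragments that were not put through the capture (input), are sequenced. The series holds 4 samples, IP replicates 1 and 2 and input replicates 1 and 2, of which the peak lists of the 2 IP replicates, biological replicates per the study's methods, were analysed. All samples came from foetal liver cells of C57BL/6 mice that were enriched for Kit, a receptor of blood stem and progenitor cells, with magnetic beads. Per the study's methods the cells were Ythdf2 CTL, that is, from control mice with floxed Ythdf2 alleles and no Cre, in which Ythdf2 is expressed as a GFP fusion protein. No treatment is given, and the age of the embryos is not given in the sources used here. By their labels, the IP samples are total RNA and the inputs polyA RNA. There is 1 group of IP samples, so no test between groups was possible, and the 95% intervals of shares are exact (Clopper-Pearson) and cover counting error only.

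Cyclins are regulatory subunits that bind Cdks and switch on their kinase activity. D-type cyclins act with Cdk4 and Cdk6 early in the cell cycle, E-type cyclins with Cdk2 at the start of DNA replication, A-type cyclins with Cdk2 and Cdk1, and B-type cyclins with Cdk1 in mitosis, while another set of Cdks phosphorylates RNA polymerase II. m6A is written on messenger RNA by a methyltransferase complex at short motifs, is found most often near stop codons and in long exons, and is read by proteins such as YTHDF2, which promotes decay of the transcript.

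The mark is placed on the A of a degenerate motif of 5 bases known as DRACH, of which GGAC followed by any base but G, called a GGAC site here, is a much used form. For 7 members, a GGAC site lay within 50 nt of the summit of the strongest exonic peak in both replicates, and each is printed here as 21 bases of the transcript's strand in GRCm38, with the 5 bases of the site in capitals. They are shown to give the sequence under the recurrent peaks of these genes. The Ccng1 site lay in the 5′ UTR (chr11:40755148-40755168, minus strand), the sites of Ccnl1 (chr3:65946611-65946631, minus strand), Ccnl2 (chr4:155823557-155823577, plus strand) and Cdk6 (chr5:3520723-3520743, plus strand) lay in the end of the coding sequence, and those of Cdk4 (chr10:127067743-127067763, plus strand), Cdk9 (chr2:32707720-32707740, minus strand) and Cdk10 (chr8:123232084-123232104, plus strand) lay in the 3′ UTR.
Ccng1: gcgctgagGGACCctccaccg
Ccnl1: gtcgctcaGGACAtggcaggc
Ccnl2: gagcggacGGACAattctgga
Cdk6: agatacaaGGACAacctgaac
Cdk4: gaggtaagGGACCtcttttct
Cdk9: ctcagcgtGGACAcaaagtga
Cdk10: gctgcccaGGACAgatgggct

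A peak list cannot show which base of a peak is methylated, so each site is a match of letters and not a mapped m6A. A GGAC site was present within 50 nt of 57.9% of the cyclin and Cdk summits that could be placed on a transcript in replicate 1 (11 of 19, interval 33.5% to 79.8%) and of 63.6% in replicate 2 (14 of 22, interval 40.7% to 82.8%). Among all placed summits of protein-coding genes such a site was near 53.0% and 52.8%, values within both intervals. Any DRACH was near 18 of 19 and 20 of 22 cyclin and Cdk summits, against 93.9% of all placed summits in each replicate.

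Transcripts of 15 of the 32 genes carried an exonic summit in both replicates (46.9%, interval 29.1% to 65.3%). The share over all protein-coding genes, 30.9%, lies within the interval of the cyclin and Cdk genes. In either replicate, 18 of the 32 genes had an exonic summit, against 37.1% of all. With a minimum fold enrichment of 4, both numbers fell, to 7 genes in both replicates (16.9% of all genes) and 9 in either (26.1%). Both L-type cyclins, Cdk4 and Cdk6 were among the genes lost, and the 3 D-type cyclins were not. Cdk16 had a summit in replicate 1 only, Ccne2 and Cdk2 had a summit in replicate 2 only, and 14 genes had none. In both replicates 6 of 14 cyclins and 9 of 18 Cdks were called. Within the families, the 3 D-type cyclins and the 2 L-type cyclins were all called, and none of the 5 A-type and B-type cyclins was. The numbers of genes per type are small. The interval runs from 29.2% to 100% for D-type, from 15.8% to 100% for L-type and from 0% to 52.2% for A-type and B-type cyclins. Each of these intervals holds the share over all protein-coding genes, 30.9%.

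**Figure D1:**
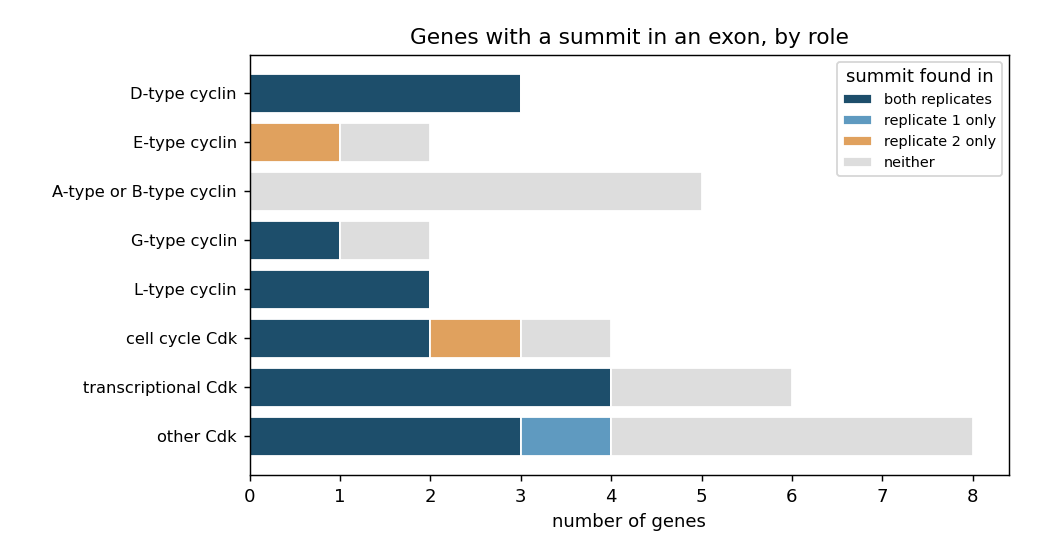
Number of cyclin and Cdk genes of each role with an exonic m6A summit in both IP replicates, in replicate 1 only, in replicate 2 only or in neither. The D-type and L-type bars are filled with genes called in both replicates and the A-type or B-type bar with genes called in neither.

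A peak needs reads of the transcript as well as m6A, and RNA levels were not measured here, so a gene without a peak can lack the mark or lack the reads. Of the marker genes of hematopoietic cells, 6 of 10 had a summit in both replicates, and Kit itself had none. Of the markers of other foetal liver cells, 1 of 5 for hepatoblasts (Apoa1), 1 of 3 for macrophages (Csf1r) and 0 of 5 for stroma and endothelium had one in both. The part of other cells in the cyclin and Cdk peaks was not tested.

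The fold enrichment of a peak, as the authors' peak caller MACS2 gave it, sets the IP signal at the summit over the background there. The 15 genes together with the 3 called in only 1 replicate held 23 exonic peaks in replicate 1 and 24 in replicate 2. Their fold enrichment ran from 1.75 to 9.70 in replicate 1 (median 3.39) and from 1.83 to 13.7 in replicate 2 (median 3.72). All exonic peaks of protein-coding genes had medians of 4.11 and 4.29. The cyclin and Cdk peaks rested on a median of 88 and 87 IP reads at the summit over 32 and 27.5 reads of background, against 71 and 68 IP reads over 18 and 14 for all exonic peaks. Their median fold was thus the lower and their median read count the higher of the compared values, in both replicates.

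**Figure D2:**
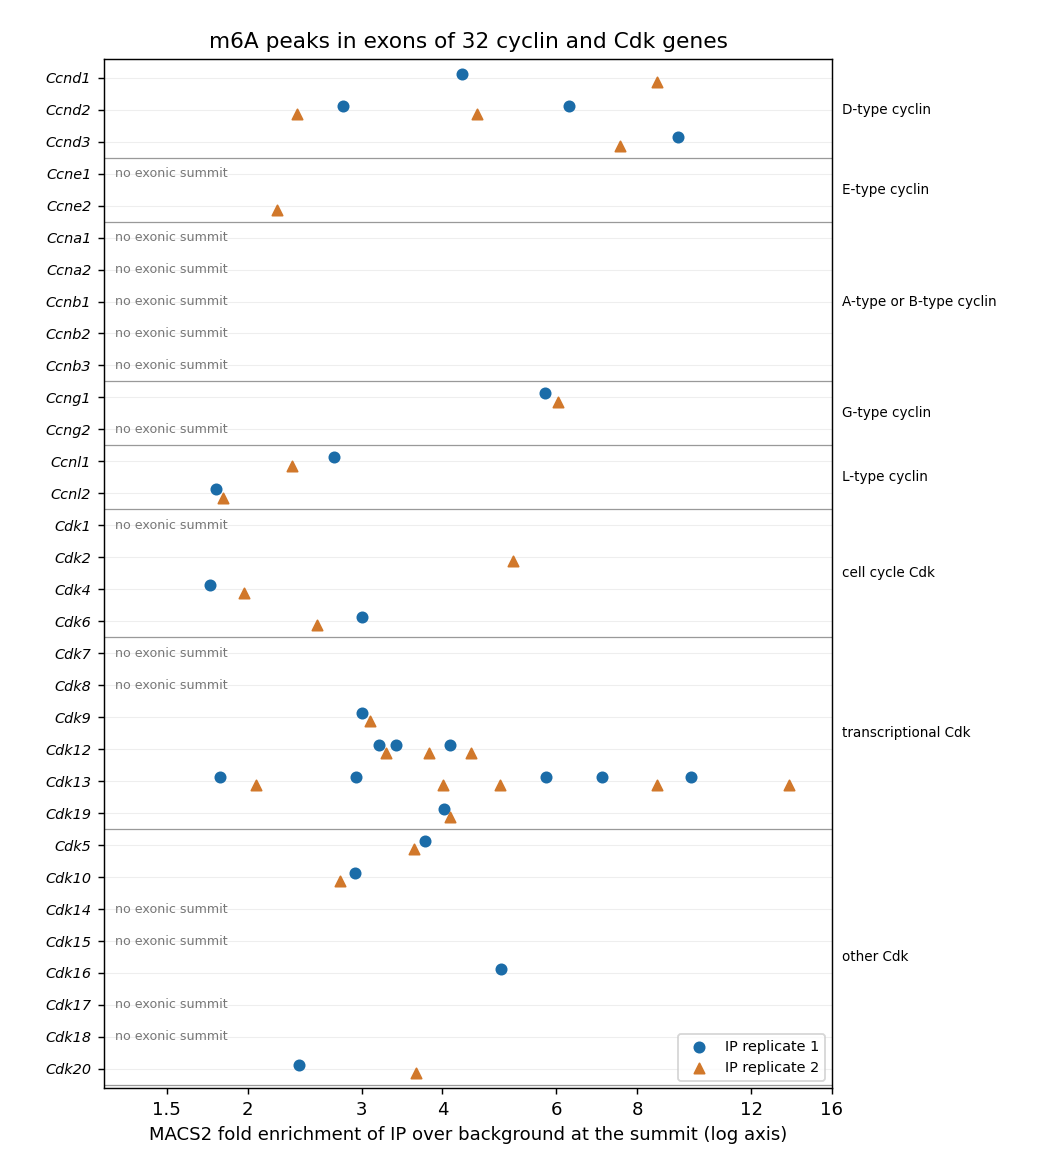
MACS2 fold enrichment at the summit (log axis) of every exonic m6A peak of the 32 genes, by gene and role, in IP replicate 1 (circles) and replicate 2 (triangles). Cdk13 has 5 peaks in each replicate and the highest values of the set, 9.70 and 13.7, while both Ccnl2 points lie below 2.

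D-type cyclins, the partners of Cdk4 and Cdk6, each had a peak at the 5′ end. In all 3 genes the strongest peak lay in exon 1, within the 5′ UTR and less than 200 nt before the start codon, in both replicates. The peak of Ccnd3 (chr17:47593416-47593659 in replicate 1) had a fold enrichment of 9.24 in replicate 1, from 76 IP reads over 8.40 of background, and of 7.53 in replicate 2, from 55 over 6.08. In replicate 1, 5.57% of all exonic peaks had a higher fold, and in replicate 2, 16%. Its summit fell on the same base in both replicates, 60 nt from the start of the transcript Ccnd3-205 and 126 nt before the start codon, in a first exon that is intronic to the longer Ccnd3 transcripts.

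The Ccnd2 peak in exon 1 (chr6:127150834-127151095 in replicate 1) had a fold enrichment of 6.27 with 82 IP reads in replicate 1 and 4.52 with 75 in replicate 2. The summits were 30 nt apart, 164 and 134 nt before the start codon. Ccnd2 alone among the D-type cyclins had another recurrent peak, in the 3′ UTR part of its last exon (chr6:127129570-127130160), with 2.80 in replicate 1 and 2.39 in replicate 2, on 139 and 137 IP reads. The 3′ summits lay 453 and 470 nt past the stop codon. The 5′ peak of Ccnd2 thus had the higher fold and the 3′ peak the greater number of IP reads in each replicate.

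Ccnd1 gave the widest gap between replicates. Its exon 1 peak (chr7:144939687-144939889 in replicate 1) had a fold enrichment of 4.28 in replicate 1 and 8.58 in replicate 2, a difference of 1.0 on the log2 scale. The IP reads were nearly equal, 22 and 26, and the background was 5 reads in replicate 1 and 2 in replicate 2. The summits were 6 nt apart, 29 and 23 nt before the start codon, so the position repeated where the fold did not.

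No GGAC site lay within 50 nt of both summits of any of the 3 D-type 5′ peaks. A DRACH site of the form AGACC was near both summits in Ccnd1 (chr7:144939711-144939731, minus strand) and Ccnd3 (chr17:47593552-47593572, plus strand), and none was near both summits of the Ccnd2 5′ peak. The Ccnd2 3′ UTR peak did hold a GGAC site near both summits (chr6:127129889-127129909, minus strand). These sites were chosen for printing after their values were seen, to set the 5′ and 3′ peaks of this family side by side, and the capitals mark the 5 letters of the motif.
Ccnd1, 5′ UTR: cccaaccgAGACCacagccct
Ccnd3, 5′ UTR: ccagcgccAGACCcgcccgca
Ccnd2, 3′ UTR: gggtgccaGGACCgcatgagt

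The E-type, A-type and B-type cyclins were without recurrent exonic summits. Of the E-type cyclins, which drive entry into DNA replication, Ccne1 had no exonic summit, and Ccne2 had 1 in replicate 2 only (chr4:11203157-11203405, fold enrichment 2.22, 69 IP reads over 29), 122 nt past the stop codon. Ccna1 and Ccna2, the A-type cyclins, and Ccnb1, Ccnb2 and Ccnb3, the B-type cyclins, had no exonic summit in either replicate. Ccnb2 had a peak in replicate 2 only that overlapped an exon with its summit 19 bp outside it (fold enrichment 1.94). GGAC sites occurred 7 times in Ccna1, 10 times in Ccna2, 7 times in Ccnb2, 11 times in Ccnb3 and 8 times in Ccne1. They occurred 2 times in Ccnb1 and 2 times in Ccne2. Per kb of transcript, Ccnb1 held 0.803, Ccne2 0.665, Ccnb3 2.4, Ccna2 3.37, Ccne1 4.0, Ccna1 4.07 and Ccnb2 4.57. The median over all protein-coding genes with no summit was 3.37, so Ccne1, Ccna1 and Ccnb2 lay above it. Ccnb3 also has an internal exon of 2709 nt, the longest internal exon of the set, with no summit in it. RNA levels were not measured here, and why these cyclins had no recurrent peak was not tested.

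Among the other cyclins, Ccng1, a target of p53, had an exonic summit in both replicates and its relative Ccng2 had none. The Ccng1 peak in exon 1 (chr11:40755110-40755318 in replicate 1) had a fold enrichment of 5.77 in replicate 1 and 6.04 in replicate 2, on 37 and 41 IP reads, with summits 199 and 190 nt before the start codon. The L-type cyclins, partners of Cdk11 with a role in splicing, both had a peak at the 3′ end, in the last exon just before the stop codon. The Ccnl1 summits lay 54 and 55 nt before the stop codon, with a fold enrichment of 2.72 and 2.34 on 156 and 144 IP reads. The Ccnl2 summits lay 160 and 138 nt before it, with 1.79 and 1.83 on 132 and 128 IP reads, and 97% and 96.8% of all exonic peaks had a higher fold. The background was 84 and 66 reads at Ccnl2 and 65 and 58 at Ccnl1. Fold enrichment is a ratio to this background, so fold and background are not independent. The strongest peak thus lay in the first exon in 4 of the 6 cyclins called in both replicates and in the last exon in the other 2.

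**Figure D3:**
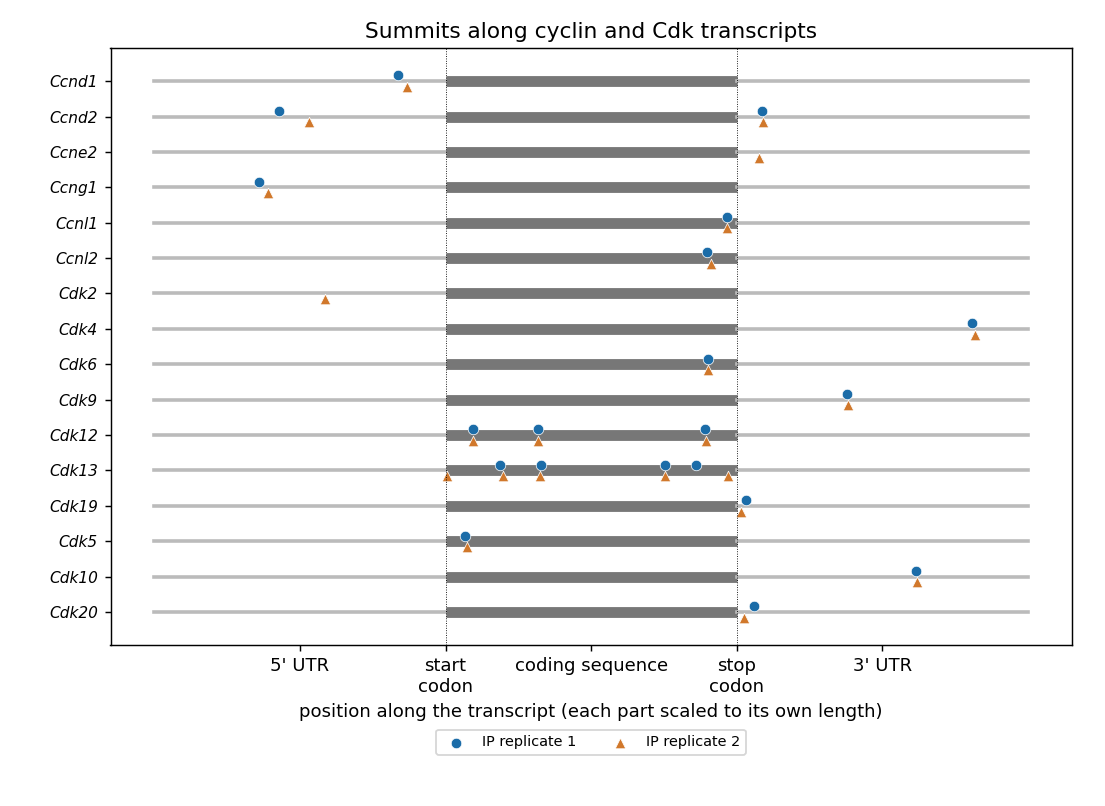
Position of each placed exonic summit along its transcript, with 5′ UTR, coding sequence (thick bar) and 3′ UTR each scaled to their own length, for IP replicate 1 (circles) and replicate 2 (triangles). Summits of Ccnd1, Ccnd2 and Ccng1 lie in the 5′ UTR, those of Ccnl1, Ccnl2 and Cdk6 lie at the end of the coding sequence, and Cdk12 and Cdk13 carry several along the coding sequence; Ccnd3 and Cdk16 are not drawn because their summits lie outside the transcript chosen for the gene.

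Among the cell cycle Cdks, Cdk4 and Cdk6, the kinases of the D-type cyclins, had a summit in both replicates, Cdk2 had 1 in replicate 2 only, and Cdk1, the kinase of mitosis, had none. The Cdk6 peak lay in the last exon (chr5:3520530-3520759 in replicate 1), with a fold enrichment of 3.01 and 2.56 on 94 and 93 IP reads. Both Cdk6 summits fell on the same base, 97 nt before the stop codon, at the start of an exon of 10364 nt, and no summit lay in the rest of that exon. The Cdk4 peak was among the weakest of the set, with 1.75 in replicate 1 (88 IP reads over 57) and 1.98 in replicate 2 (107 over 51), and −log10 q of 3.85 and 6.89. It lay 729 and 738 nt past the stop codon, where an exon of Tspan31 runs on the other strand, and the lists carry no strand, so it is uncertain which of the 2 genes it belongs to. The Cdk2 peak of replicate 2 lay in exon 1, 84 nt before the start codon (chr10:128704840-128705067), with a fold enrichment of 5.14 on 53 IP reads over 9 and a −log10 q of 18.1. Cdk1 held 16 GGAC sites on a transcript of 4375 nt and no summit.

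Of the transcriptional Cdks, Cdk13 alone held the highest fold enrichment and the greatest number of peaks of the set. Cdk9, Cdk12, Cdk13 and Cdk19 had a summit in both replicates, and Cdk7, the kinase of TFIIH, and Cdk8, the Mediator kinase closely related to Cdk19, had none. Cdk13, which with cyclin K phosphorylates the tail of RNA polymerase II, had 5 exonic peaks in each replicate. The peak in the coding part of exon 1 (chr13:17803565-17804007 in replicate 1) had a fold enrichment of 9.70 in replicate 1, from 68 IP reads over 7, and of 13.7 in replicate 2, from 71 over 4. In replicate 2, 1.61% of all exonic peaks had a higher fold. The peak in exon 2, an exon of 657 nt, had 5.77 on 146 IP reads and 4.91 on 133, and its −log10 q of 57.4 in replicate 1 was exceeded by 1.44% of exonic peaks.

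The remaining Cdk13 peaks differed in how well they repeated. The peak around the start codon had a fold enrichment of 7.06 and 8.59 but rested on 10 and 17 IP reads over 0.64 and 1 of background. The peak in exon 13 had 1.81 and 2.06, with the lowest −log10 q of the set in each replicate, 2.76 and 4.19. The wide peak of the last exon had 2.94 and 4.0 on 138 and 142 IP reads, with summits 504 nt apart, the greatest distance between paired summits in the set.

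Cdk12, the closest relative of Cdk13 and another partner of cyclin K, had peaks in the same numbered exons. It had peaks in exon 1, in exon 2 (876 nt) and in the last of 14 exons, as did Cdk13, which also has 14. The exon 2 peak (chr11:98210502-98211077 in replicate 1) had a fold enrichment of 4.11 and 3.81 on 118 and 111 IP reads, with both summits on the same base. The exon 14 peak had 3.39 and 4.43 on 115 and 134 IP reads. The exon 1 peak had 3.19 and 3.28, and in replicate 1 it overlapped a pair of peaks of replicate 2, so it entered no one-to-one pair. Cdk12 thus had the lower fold of the pair in exons 1 and 2. In exon 1 of Cdk12, outside the one-to-one pairs, a GGAC site lay 13 nt past the summit of replicate 1 and 6 nt past that of replicate 2. Among the one-to-one pairs of the 2 genes, a GGAC site lay near both summits in exon 14 of Cdk12 (chr11:98249921-98249941, plus strand) and in exon 1 of Cdk13 (chr13:17803795-17803815, minus strand), both in the coding sequence. These are printed, after their values were seen, for the 2 genes with the most peaks.
Cdk12, exon 14: tccaaacaGGACTtacggaaa
Cdk13, exon 1: ccgcagccGGACTaagtcgtc

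Cdk9, the kinase that releases paused RNA polymerase II, had the peak with the most IP reads of the set. Its single peak lay in the last exon (chr2:32707574-32708366 in replicate 1), with a fold enrichment of 3.0 from 183 IP reads over 69 and of 3.09 from 184 over 56. The summits were 1 nt apart, 187 and 188 nt past the stop codon, and Cdk9 also had the densest GGAC sites of the set, 8.08 GGAC sites per kb. Cdk19 had a peak just past the stop codon in its last exon, with 4.03 and 4.11 on 84 and 81 IP reads. Cdk8, without a summit, held 12 such sites on its transcript and Cdk19 held 20. Per kb, Cdk8 had the more, 4.04 against 3.44 for Cdk19.

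Of the 8 Cdks with other roles, Cdk5, Cdk10 and Cdk20 had a summit in both replicates. Cdk5, known for its work in neurons, had a peak in exon 2 (chr5:24422817-24423016 in replicate 1), an exon of 89 nt, with a fold enrichment of 3.76 and 3.62 on 29 and 37 IP reads and summits 59 and 65 nt past the start codon. Cdk5 was the only member whose strongest peak had its summit in an inner exon in both replicates. The peak, 200 and 203 bp wide, was wider than that exon and so ran beyond it. Cdk10, the partner of cyclin Q, had a 3′ UTR peak with 2.93 and 2.78 on 112 and 113 IP reads. Cdk20, a kinase linked to cilia, had a peak past the stop codon with 2.40 and 3.64 on 37 and 41 IP reads and summits 100 nt apart. Cdk16, a kinase activated by cyclin Y, had a 5′ peak in replicate 1 only, with 4.93 on 16 IP reads. Cdk14, also a partner of cyclin Y, Cdk15, Cdk17 and Cdk18 had no exonic summit. Cdk14 and Cdk18 held 20 GGAC sites each and Cdk17 held 17. In 6 of the 9 Cdks called in both replicates the strongest peak lay in the last exon in each replicate. In 4 of the 6 called cyclins, the 3 D-type cyclins and Ccng1, it lay in the first exon. These counts are small, and the place of the strongest peak was not computed over all genes. Of all placed summits, the last exon held 61.6% and 61.1% in replicates 1 and 2, and the first exon 15.5% and 16.3%.

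**Figure D4:**
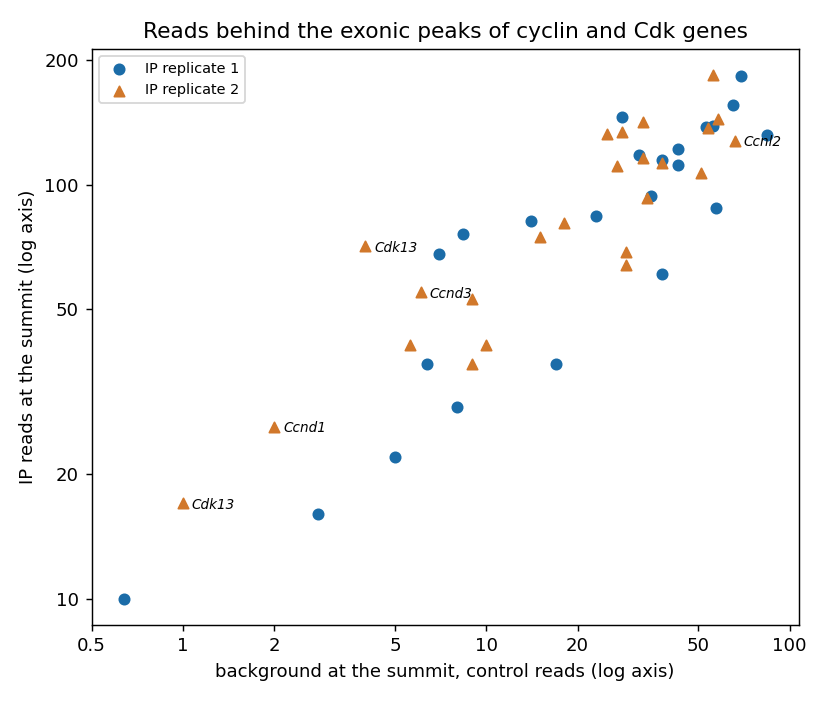
IP reads at the summit against background reads at the summit (both log axes) for the exonic peaks of the 32 genes in IP replicate 1 (circles) and replicate 2 (triangles). The start codon peak of Cdk13 and the Ccnd1 peak sit at the low end, with 17 and 26 IP reads in replicate 2, and both Ccnl2 peaks sit at the high end of background.

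The peaks of the cyclin and Cdk genes were compared with all exonic peaks for what the choice of genes did not fix. At least 1 bp of overlap with a peak of the other replicate was found for 22 of 23 peaks of replicate 1 (95.7%, interval 78.1% to 99.9%) and 22 of 24 of replicate 2 (91.7%, interval 73.0% to 99.0%). All exonic peaks gave 85.1% and 87.2%, within those intervals. In 21 one-to-one pairs the fold enrichment of replicate 2 over replicate 1 had a median of 0.04 on the log2 scale with an SD of 0.35, and 20 pairs were within 2-fold, with Ccnd1 as the exception. The SD over 9236 pairs of all protein-coding genes was 0.45. Paired summits were a median of 9 nt apart, against 16 nt over all pairs.

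**Figure D5:**
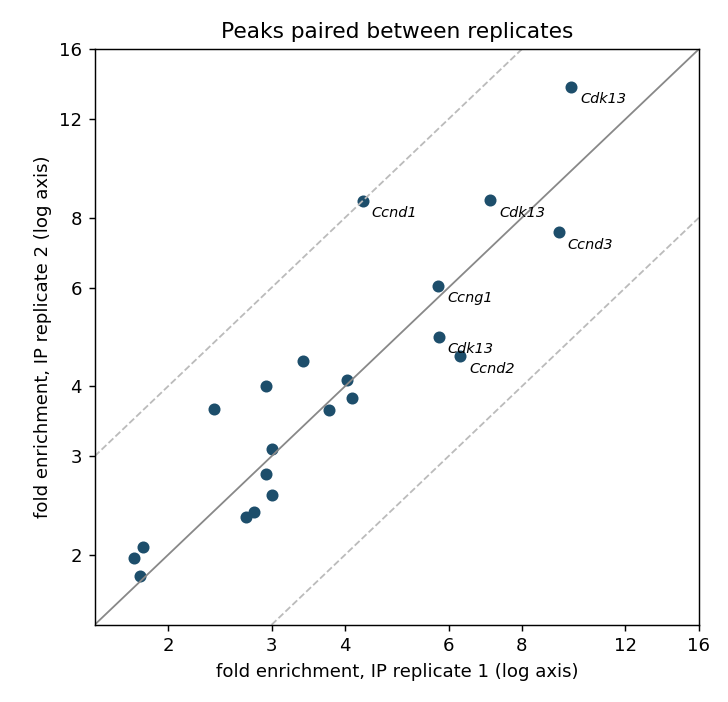
Fold enrichment in IP replicate 1 and replicate 2 (both log axes) for the 21 one-to-one pairs of overlapping exonic peaks of cyclin and Cdk genes. The solid line marks equal values and the broken lines a 2-fold difference; 20 pairs lie between the broken lines and Ccnd1 lies at the upper one.

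Summits of cyclin and Cdk transcripts lay at the stop codon, within 200 nt, in 31.6% of 19 placed summits of replicate 1 and 36.4% of 22 of replicate 2, and at the start codon in 21.1% and 27.3%. The same shares over all placed summits were 30.7% and 29.8% for the stop codon and 14.7% and 15.4% for the start codon. The first exon held 26.3% and 31.8% of cyclin and Cdk summits (intervals 9.15% to 51.2% and 13.9% to 54.9%), against 15.5% and 16.3% of all. The last exon held 52.6% and 50%, against 61.6% and 61.1%, and exons of at least 400 nt held 84.2% and 81.8%, against 86.7% and 86.8%. Each of the values for all placed summits lay within the interval of the cyclin and Cdk summits, so no difference in position was detectable among this number of placed summits. The placed summits leave out several in exon 1 of transcripts other than the chosen one. These are the Ccnd3 summits of both replicates and, in replicate 1, those of Cdk16 and of the start codon peak of Cdk13. The Cdk4 summits, shared with Tspan31, are also left out. The first exon share of all cyclin and Cdk summits is thus higher than that of the placed ones, and its interval was not computed.

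The genes called in both replicates were set against those with no summit for length and motif. The 15 called genes had a median of 3512 bp of exon and 4.26 GGAC sites per kb, and the 14 without a summit had 3064 bp and 4.02 sites per kb. Over all protein-coding genes the medians were 3736 bp and 3.72 sites per kb for called genes and 2335 bp and 3.37 for those without. Of 14 cyclin and Cdk genes with under 2500 bp of exon, 7 were called (interval 23% to 77%), a length class in which 17.8% of all protein-coding genes were called. The called genes are Cdk4, whose peak is shared with Tspan31, Cdk5, Cdk9, Cdk10, Ccnd3, Ccnl1 and Ccnl2. Of these, only Ccnd3 stayed called in both replicates at a minimum fold enrichment of 4, and the share of all genes of this length was not computed there. Genes that lack reads in these cells count as not called in the share over all genes. Of 8 genes with 2500 to 4000 bp, 2 were called against 35.2% of all genes, and of 10 genes with 4000 bp or more, 6 were called against 46.3%. Of the 4 genes with an internal exon of at least 400 nt, Cdk6, Cdk12 and Cdk13 were called and Ccnb3 was not (interval 19.4% to 99.4%), a class in which 50.2% of all protein-coding genes were called.

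Pseudogene copies can share reads with a parent gene. Annotated pseudogenes of the families are Ccnb1-ps, Ccnb2-ps, Ccnd3-ps and Cdk3-ps, and 1 of them, Ccnb2-ps, had a summit, in replicate 2 only.

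The partners and regulators of these kinases outside the naming rule were counted from a list of 54 genes. Exonic summits were found in both replicates in 32 of them (59.3%, interval 45.0% to 72.4%), against 30.9% of all protein-coding genes. With a minimum fold enrichment of 4, 13 of the 54 were left, against 16.9% of all. The list was chosen with earlier results of these data known, and all protein-coding genes include those that lack reads in these cells. The share of the list is thus a description and was not tested. The groups within the list are small, and their counts are a description. Cyclins outside the rule gave 9 of 13, including Ccnt1 and Ccnt2, the partners of Cdk9, Ccnq, the partner of Cdk10, and Ccny, the partner of Cdk14 and Cdk16. Ccnk, the partner of Cdk12 and Cdk13, had a summit in replicate 1 only, Ccnc, the partner of Cdk8 and Cdk19, in replicate 2 only, and Ccnh, the partner of Cdk7, in neither. Of the Cdk inhibitors 5 of 7 were called, Cdkn1a, Cdkn1b, Cdkn1c, Cdkn2c and Cdkn2d, of which the last pair bind Cdk4 and Cdk6. Of the phosphatases and kinases that act on Cdks 4 of 5 were called, Cdc25a, Cdc25b, Wee1 and Pkmyt1, and of the E2f transcription factors 6 of 8. Ubiquitin ligase parts that act on cyclins gave 6 of 7, among them Ambra1, which directs D-type cyclins to degradation. Of the pocket proteins, the substrates of Cdk4 and Cdk6, Rbl2 was called and Rb1 and Rbl1 were not. Of the relatives and partners of Cdks 1 of 11 was called (interval 0.23% to 41.3%, which holds the share over all genes), Cdk5r1, the activator of Cdk5, and Cdk11b, the partner of the L-type cyclins, had no exonic summit.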

How the data were processed

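m6A meRIP-seq of Kit+ foetal liver cells was analysed from the 2 deposited peak lists, 1 per IP replicate. Per the study's methods and the submitters' processing notes, the authors aligned reads to GRCm38 with HISAT2 and called peaks with MACS2 (version 2.1.1.20160309, nomodel flag); the threshold, the genome size and the control library are not given in the sources used here. The deposited score of a peak follows its −log10 q. The deposited fold enrichment is a ratio of IP to background with 1 added to each, and the deposited −log10 p-value and −log10 q-value belong to the same summit, which was placed from the deposited summit offset. Library totals are not known from peak lists. Whole IP reads, and the background in reads of the control library, were recovered from fold and −log10 p for 100% of peaks of each list (tolerance 0.001), which limits the precision of each peak to its counting error.

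The lists held 15635 and 14872 peaks, of which 11894 and 11493 had their summit in an exon of a protein-coding gene. Exons came from the basic set of GENCODE M21, and coordinates are 1-based. A gene was called when a summit lay in any of its exons, also where exons of other genes overlap. Positions and motifs were read on the transcript with the longest coding sequence, for 19 and 22 of the 23 and 24 cyclin and Cdk summits; the stop codon took precedence over the start codon, each with 200 nt. Motifs were searched on the transcript's strand only. Every member is named; the strongest peak is that with the highest −log10 q, and a site is printed where GGAC followed by any base but G lay within 50 nt of its summit in both replicates. The genes and lists were chosen with earlier results of these data known. Python 3.11.15, numpy 2.4.6, pandas 2.3.3, scipy 1.17.1 and matplotlib 3.10.9 were used, and the read recovery was tested on simulated data. The input samples' reads were not analysed here.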

Additional observations from a re-analysis of the deposited data

Results flagged for a closer look

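Peaks inside the bodies of member genes whose summit lay in no basic exon were left out of the main counts. Those of 4 genes recurred in both replicates. The setting of any overlap with an exon, given in the next section, does count such peaks where they overlap an exon. There is no control sample with a peak list to set them against. Ccnl2 had an intronic peak (chr4:155819682-155819978) with a fold enrichment of 3.77 in replicate 1 and 4.23 in replicate 2, on 118 and 110 IP reads. Both values exceed those of its last exon, and the nearest basic exon is 504 and 503 bp from the summits. Cdk10 had a peak across the end of exon 1 (chr8:123224836-123225036) with 4.90 and 3.97 on 24 IP reads each, summits 20 and 17 bp outside the exon, and they lie also in the body of Gm20388 on the same strand, so the gene is uncertain.

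Cdk17, which had no exonic summit, had a peak across the border of its last exon (chr10:93239259-93239915) with a fold enrichment of 3.19 in replicate 1 and 3.32 in replicate 2 on 94 and 107 IP reads, its summits 12 and 8 bp before the exon. Another peak inside the annotated Cdk17 body (chr10:93266346-93266593), with 9.10 and 6.26 on 24 and 15 IP reads, lies also in the body of Elk3 on the other strand and cannot be given to one of them. Cdk6 had an intronic peak (chr5:3353362-3353582) with 5.82 and 5.73 on 10 and 17 IP reads, 8907 and 8737 bp from the nearest exon. What gave rise to these peaks was not tested.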

How the results depend on the processing

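With the 15 called genes as reference, a minimum −log10 q of 3 gave 15, of 5 gave 13 (Cdk4 and Cdk20 lost), any overlap with an exon or the comprehensive annotation 16 each (Cdk17 added), and summits in exons of several genes left out 14 (Cdk4 lost), while the share over all protein-coding genes ran from 28.9% to 32.6%. A minimum fold enrichment of 4 left 7 genes against 16.9% of all protein-coding genes, and lowered the genes called in either replicate from 18 to 9 (26.1% of all) and the 32 called pathway genes to 13. The cyclin and Cdk genes no longer called in both were Ccnl1, Ccnl2, Cdk4, Cdk5, Cdk6, Cdk9, Cdk10 and Cdk20. With 1 replicate left out, the same 3 counts were 16 to 17, 16 to 17 and 33 to 36. The mean shared share of 93.7% became 85.1% at 50% reciprocal overlap, 89.4% at summits within 100 bp, 88.8% at −log10 q of 5 and 76.4% at a fold of 4 (91.7% to 95.7% with a replicate left out). The stop codon share of 34% became 14.4% within 100 nt and 38.9% within 400 nt (31.6% to 36.4%), the last exon share of 51.3% ran from 50% to 52.6%, and the share of summits near GGAC followed by any base, G included, of 60.8% became 29.1% within 25 nt and 73.2% within 100 nt (57.9% to 63.6%). The median fold of 3.56 became 3.85 at −log10 q of 5 (3.39 to 3.72). The alternatives of the pathway list, and leaving a replicate out of the shared share, were chosen after seeing the data. No paired analysis was possible because IP and input share replicate numbers but only the IP replicates have peak lists, and no result comes from a test. Transcripts with few reads cannot show a peak, and the peaks with 10 to 17 IP reads are the least certain in fold.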
